A study of Mus musculus with 62 samples.

Results

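H3K27ac, acetylation of histone H3 at lysine 27, was compared between 2 mouse hindlimb muscles at regions where both carried a called peak. The EDL (extensor digitorum longus) is a muscle of fast fibers and the soleus (Sol) is rich in slow and oxidative fibers. Peaks of the EDL list and of the Sol list were matched one to one where each covered at least 50% of the other. This gave 20649 regions, which were 57.8% of the 35750 EDL peaks and 60.4% of the 34173 Sol peaks. The study held 62 libraries, and 4 of them, labelled EDL_H3K27Ac and Soleus_H3K27Ac with replicates 1 and 2 each, make up the comparison. They came from whole muscles of sedentary, untreated young adult male C57BL/6J mice with no transgene, and muscles of several animals were pooled for a library. Whether the EDL and the soleus of a replicate number came from the same animals is not given in the sources used here. In bulk muscle, a lower share of one cell type and less of the mark per cell cannot be told apart.

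Acetylation of lysine 27 neutralizes a positive charge on the histone tail and marks promoters and enhancers in use, where transcriptional coactivators with acetyltransferase activity are bound. Fast fibers break down glycogen to lactate, contract with fast isoforms of myosin and of the other sarcomere proteins, and take calcium back up quickly. Slow fibers use their own set of sarcomere isoforms and rely on mitochondria. The genes of each set are switched on in one kind of fiber and kept low in the other, in part through enhancers far from the genes.

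The level of a region is its tag value on the log2 scale, less the log2 of its width in kb, with each library centred on its own median over the matched regions. A level of 0 is therefore the median region of that library, and 1 unit is taken as a 2-fold difference. Every difference is the EDL mean less the Sol mean, and its SD is taken over the 4 ways of pairing 1 EDL library with 1 Sol library. A region was called where the means differed by more than 1 and the libraries of the muscles did not overlap. The authors had normalized each muscle's list separately, so no test across lists was run and no p-value is given. By the list headers the 4 libraries held from 19783028 to 21602302 tags, and the inputs held 19857682 (EDL) and 18901362 (Sol).

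The muscle label was met by the data. All 16 skeletal muscle marker genes (Ckm, Acta1, Des, Ttn and others) had a matched region, and the strongest region of each had a median level of 1.43 in EDL and 1.01 in Sol. Markers of other cells lay lower. The strongest regions of the 15 endothelial markers had a median of -0.10 in EDL and 0.16 in Sol. For the 13 immune markers, of which 4 had no peak in either list, the medians were -1.52 and -0.95.

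Stretches of DNA under MED1 peaks are shown first, since MED1, a subunit of the mediator complex that links enhancers to RNA polymerase, marks the point inside a broad acetylated region where the coactivator was bound. Each stretch holds 200 bases round the centre of a MED1 peak of the muscle with the higher H3K27ac, on the plus strand of GRCm38 (mm10), read from RefSeq, outside exons. Capitals mark the words searched: CAGCTG for an E-box, TGGAAA for NFAT, TGANTCA for AP-1, TCAAGGTCA for ERR and its half-site AGGTCA, and the MEF2 word by name, on either strand. The 3 from regions higher in EDL lie near Glul (glutamine synthetase) at chr1:153910355-153910554, 268202 bases from Rplp1 (a ribosomal stalk protein) at chr9:61645128-61645327 and in Myl1 (the fast alkali myosin light chain) at chr1:66944391-66944590.
Glul: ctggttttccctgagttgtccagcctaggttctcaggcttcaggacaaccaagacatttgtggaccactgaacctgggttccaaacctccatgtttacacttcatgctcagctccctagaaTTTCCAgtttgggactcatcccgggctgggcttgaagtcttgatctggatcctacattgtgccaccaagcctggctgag
Rplp1: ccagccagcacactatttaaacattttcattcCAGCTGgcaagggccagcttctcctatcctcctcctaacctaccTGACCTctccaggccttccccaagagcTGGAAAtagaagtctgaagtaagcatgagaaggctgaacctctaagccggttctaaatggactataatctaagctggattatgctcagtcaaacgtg
Myl1: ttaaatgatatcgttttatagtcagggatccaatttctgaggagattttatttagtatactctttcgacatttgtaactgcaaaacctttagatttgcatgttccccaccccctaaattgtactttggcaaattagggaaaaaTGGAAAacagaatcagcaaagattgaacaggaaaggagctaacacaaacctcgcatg

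The 3 from regions higher in Sol lie near Psap (prosaposin) at chr10:60262075-60262274, in Gipc2 at chr3:152121936-152122135 and near Tubg1 (gamma-tubulin) at chr11:101134897-101135096. In the Psap stretch 67% of the bases are repeat-masked in the reference, and none of the words was found there or in the Tubg1 stretch.
Psap: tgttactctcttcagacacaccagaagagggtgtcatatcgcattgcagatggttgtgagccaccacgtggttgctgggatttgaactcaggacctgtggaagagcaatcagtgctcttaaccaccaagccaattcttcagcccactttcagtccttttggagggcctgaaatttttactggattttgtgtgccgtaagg
Gipc2: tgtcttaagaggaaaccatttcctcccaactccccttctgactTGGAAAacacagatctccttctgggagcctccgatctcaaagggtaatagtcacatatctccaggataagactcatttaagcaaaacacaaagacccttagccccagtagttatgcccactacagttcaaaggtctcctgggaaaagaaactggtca
Tubg1: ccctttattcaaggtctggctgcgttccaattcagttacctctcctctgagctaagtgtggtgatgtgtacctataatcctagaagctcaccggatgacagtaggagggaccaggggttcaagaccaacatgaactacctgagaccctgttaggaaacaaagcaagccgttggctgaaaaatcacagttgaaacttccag

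Across the 20649 regions, the levels of EDL and Sol ranked alike but less so than replicates did. Spearman's rho between the muscle means was 0.880 ± 0.021 (SD over 4 library pairings, which ran from 0.839 to 0.888), against 0.961 between the EDL replicates and 0.945 between the Sol replicates. The absolute difference between muscle means had a median of 0.27, and that between replicates had a median of 0.16 in EDL and 0.17 in Sol. A replicate pair differed by more than 1 at 53 regions in EDL and 27 in Sol, and the muscle means did so at 564. These correlations run across regions of the same libraries, which are not independent replicates, so they are given as descriptions. The replicates of a muscle share a list that was normalized together, and the muscles do not. Spreads between replicates and between muscles are therefore not on equal terms.

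Of the matched regions, 564 (2.73%) were over 2-fold apart, 399 (1.93%) higher in EDL and 165 (0.799%) higher in Sol. At all 564 the libraries of the muscles did not overlap. The calls higher in EDL made up 70.7% of the total. Without EDL replicate 1, 278 regions were higher in Sol. Where the differences of both replicate numbers had to pass, 356 regions did, 270 higher in EDL and 86 higher in Sol. The share higher in EDL depended on the scaling: it was 55.1% (305 and 249 regions) when libraries were centred on promoter regions, and 54.6% (1142 and 949 regions) when the tag values were not divided by the width of the peak. Quantile normalization gave 80.4% (452 and 110 regions). Differences ran from -1.84 to 2.12, with a median of -0.04 and quartiles of -0.30 and 0.24. Just inside the bound lay a region near Ccdc69 at a difference of 1.0 and just outside it one near Rasa3 at 0.999. On the Sol side the nearest were regions of Brsk1 at -1.001 and of 4931430N09Rik at -0.995.

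**Figure D1:**
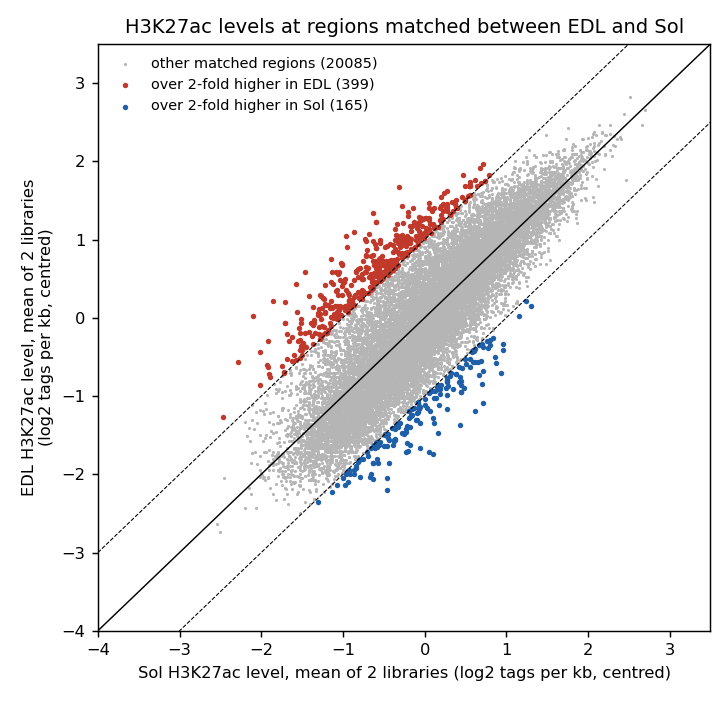
H3K27ac level of each of the 20649 matched regions in Sol (x axis) and EDL (y axis), as the mean of 2 libraries on the log2 scale per kb, centred on the library median. The solid line marks equal levels and the dashed lines a 2-fold difference: the 399 red regions lie above the upper dashed line, the 165 blue ones below the lower, and most regions lie along the diagonal.

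Called regions were rare at promoters. Only 7 of 4033 promoter regions (0.174%) were over 2-fold higher in EDL and 6 (0.149%) higher in Sol, and the differences at promoters had an SD of 0.31, against 0.43 over all regions. In gene bodies, 9112 of whose 11003 regions were annotated to introns, 259 (2.35%) were higher in EDL and 92 (0.836%) higher in Sol, and between genes 133 of 5613 (2.37%) and 67 (1.19%). Shares were also lower near gene starts. Within 5 kb of a start 0.780% of 9363 regions were higher in EDL, at 5 to 50 kb it was 3.04% of 7489, and beyond 50 kb it was 2.58% of 3797. The corresponding shares higher in Sol were 0.246%, 1.12% and 1.53%. The median distance to the nearest start was 20.8 kb for the regions higher in EDL, 26.5 kb for those higher in Sol and 7.94 kb for all.

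Regions higher in one muscle also tended to be wider there. The median width of the 399 regions higher in EDL was 3094 bp in the EDL list and 2392 bp in the Sol list, and 318 of them (79.7%) were wider in EDL, against 57.0% of all regions. For the 165 regions higher in Sol the medians were 1693 bp in EDL and 1901 bp in Sol. The input column of each list moved with the calls. Its centred EDL minus Sol difference had a median of 0.54 at regions higher in EDL and -0.58 at those higher in Sol, against 0.00 over all, and its part in the calls was not tested. When it was subtracted, an alternative chosen after seeing the data, 198 and 124 regions were over 2-fold apart, of which only 87 and 22 were among the regions called here, and 537 of the 564 kept their sign.

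The largest difference in favour of EDL was at a region of Nrip1, a corepressor of nuclear receptors that restrains oxidative metabolism genes, which lay 271 kb from its start between genes (chr16:76643562-76645480). Its levels were 0.17 and -0.14 in EDL and -1.98 and -2.23 in Sol, a difference of 2.12 ± 0.23. Both EDL libraries stood near the median region and both Sol libraries far below it. Next came a region 1.22 kb upstream of an annotated start of Sox6 (chr7:116039370-116040548), a repressor of slow-fiber genes. Sox6 measured 0.16 and 0.27 in EDL and -1.83 and -1.89 in Sol, 2.07 ± 0.07. Both lost their call with the input subtracted, at 0.69 for Nrip1 and 0.61 for Sox6. An intron of Slc8a1, the sodium-calcium exchanger, held the third (chr17:81703990-81706286), with 0.55 and 0.62 in EDL and -1.31 and -1.62 in Sol.

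Slc16a3, the lactate exporter MCT4 of glycolytic fibers, carried one of the widest of these regions, 11236 bp in the EDL list, in an intron 1.11 kb from its start (chr11:120944556-120955792). Its levels were 1.61 and 1.74 in EDL and -0.33 and -0.28 in Sol, a 3.94-fold difference (1.98 ± 0.08). The gene body of Myom2, which encodes the M-protein of the fast-fiber M-band, measured 1.18 and 1.02 in EDL and -0.72 and -1.02 in Sol (chr8:15070733-15078953). In both, EDL stood well above its median while Sol lay below its own. Slc16a10, a transporter of aromatic amino acids, measured 1.23 and 1.22 against -0.56 and -0.62 in an intron 33.1 kb from its start (chr10:40106561-40111697). The other 6 of the 12 regions with the largest differences were nearest to Cdkn2aipnl (2.01), Xylt1 (2.00), which starts glycosaminoglycan chains, Tmem233 (1.96), Mpst (1.91), a sulfurtransferase of cysteine breakdown, Gramd4 (1.90) and 4930405A10Rik (1.86). None of the 12 was at a promoter. Of the 12, 10 were still called with the input subtracted.

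On the Sol side the largest difference lay in an intron of Esrrb, the estrogen-related receptor beta, one of the orphan nuclear receptors that act on mitochondrial genes (chr12:86371214-86373061). Esrrb measured -1.30 and -2.18 in EDL and 0.19 and 0.00 in Sol (-1.84 ± 0.52), so that the EDL replicates themselves lay apart. Esrrb was at -0.12 with the input subtracted, and none of the 12 regions kept its call, with differences from -0.92 to -0.12. Kcne4, an accessory subunit of potassium channels, had a region 71.1 kb away (chr1:78744801-78746941) at -1.09 and -1.30 in EDL and 0.61 and 0.63 in Sol. Kcnq5, a voltage-gated potassium channel, had one 108 kb away (chr1:22069647-22071135) at -1.22 and -1.52 against 0.62 and 0.24. The others were nearest to Mir331 (-1.80), Gpr137 (-1.76), Aldh1l1 (-1.73), an enzyme of folate metabolism, Ankrd50 (-1.65), Uchl3 (-1.62), a ubiquitin hydrolase, Psap (-1.60), Dhrs4 (-1.59), a carbonyl and retinal reductase, 9930111H07Rik (-1.54), the one promoter among the 12, and Natd1 (-1.5). A Sol library exceeded 1 only at Ankrd50, with 1.18 and 0.70 in Sol and -0.43 and -0.99 in EDL.

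**Figure D2:**
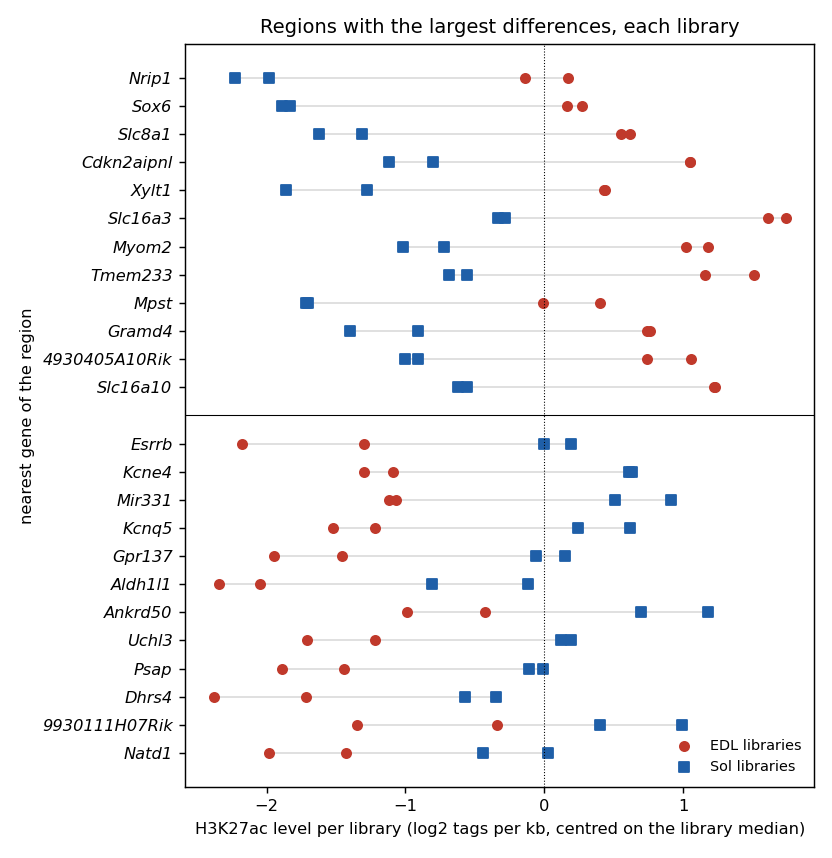
H3K27ac level in each library (x axis, log2 per kb, centred on the library median) for the 12 regions with the largest difference in each direction, named by nearest gene (y axis). Circles are the 2 EDL libraries and squares the 2 Sol libraries, and in every row the 2 muscles do not overlap, with EDL to the right in the upper block (1.82 to 2.12 higher) and Sol to the right in the lower block.

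Fast sarcomere genes had the highest list median. Of their 14 matched regions 4 were called higher in EDL (28.6%, against 1.93% of all regions) and none higher in Sol, and the median difference was 0.85, against -0.04 over all regions. Actn3, the alpha-actinin of fast Z-discs, was at 0.89 and 1.07 in EDL and -0.70 and -0.73 in Sol in a region centred 1.88 kb from its start (chr19:4872454-4879601). A region 11.6 kb upstream of Mylk2, the kinase of the myosin regulatory light chain in skeletal muscle, was at 0.93 and 0.42 against -0.33 and -0.91 (chr2:152898226-152901217). For Myl1, whose MED1-bound stretch is printed above, the region in the gene was 16138 bp wide in EDL (chr1:66930287-66946425) and measured 1.77 and 1.74 in EDL and 0.75 and 0.49 in Sol. A second Myl1 region 12.8 kb from the start differed by 1.02 ± 0.07. The differences of 12 of the 14 were above 0. With the input subtracted 2 of the 4 calls remained, Actn3 (1.08) and Mylk2 (1.03), and the list median was 0.54.

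Slow and oxidative sarcomere genes showed little in matched regions, with a median of 0.00 over 19 regions. None was called higher in EDL and 1 was called higher in Sol (5.26%, against 0.799% of all regions). That region lay in Myoz2, a Z-disc protein of slow fibers and heart that binds calcineurin (chr3:123028494-123036220). Myoz2 measured -0.13 and -0.69 in EDL and 1.17 and 0.76 in Sol, -1.37 ± 0.40, and lost its call at -0.81 with the input subtracted. At Myh2, the myosin of fast oxidative fibers, the region 1.94 kb from the start (chr11:67169038-67176897) was at -0.31 and -0.77 in EDL and 0.38 and 0.16 in Sol, a difference of -0.81 that stayed under the bound, while its other 2 regions differed by 0.01 and 0.00. Only 7 of the 15 genes had a matched region at all.

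Matching leaves out peaks called in one muscle alone. Of the 35750 EDL peaks 9521 (26.6%) overlapped no Sol peak, and 7127 of the Sol peaks (20.9%) overlapped no EDL peak. Such peaks were mostly weak, with a median level of -1.14 in EDL and -1.27 in Sol on the scale of the matched regions. Among fast sarcomere genes 11 of 33 EDL peaks and 0 of 30 Sol peaks stood alone in this way. Among slow and oxidative sarcomere genes it was 4 of 33 EDL peaks and 18 of 51 Sol peaks. A peak that is missing from a list was under its calling threshold, which is not a level of 0.

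Myh7, the slow myosin heavy chain, had no EDL peak and 3 Sol peaks. The wide ones were at 0.33 and 0.05 (chr14:54991466-54999824) and at 0.47 and 0.24 (chr14:55002072-55007046) in the 2 Sol libraries. Tnnt1, the slow troponin T, had a Sol peak 0.374 kb from its start at 0.63 and 0.53 (chr7:4513485-4517718), and Myl2, the slow regulatory light chain, one over its promoter at 0.33 and 0.05 (chr5:122096689-122103659), neither of which overlapped an EDL peak. Tnnt1 and Myl2 were picked for their level after the values were seen. The reverse held at the fast genes. Myh4, the myosin of the fastest fibers, had an EDL peak of 15575 bp at 0.61 and 0.82 (chr11:67226425-67242000), within which the Sol list held a single peak of 500 bp at -1.28 and -2.33. Myh1 had an EDL peak of 11710 bp at 0.60 and 0.37, over which the Sol list had 3 narrower peaks at levels from -1.48 to -0.16. Pvalb, the calcium buffer of fast fibers, was at 1.17 and 1.19 over 7576 bp in EDL (chr15:78201300-78208876) and at -0.35 and -0.72 over 1952 bp in Sol. None of Myh1, Myh4, Myh7 and Pvalb had a region in the matched set.

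Acta1, skeletal alpha-actin, had a promoter region at 1.65 and 1.49 in EDL and 0.89 and 0.36 in Sol, 0.95 ± 0.32, and a region 12.6 kb away at 1.14 and 1.12 against 1.25 and 1.07. Both Acta1 values depended on peak width. The promoter peak was 8134 bp wide in EDL and 13014 bp in Sol, and its difference without the width term was 0.22. At the other region the difference went from -0.03 to 0.58. Ngdn, a gene next to the cardiac and slow myosin locus on chromosome 14, was at 0.43 and 0.64 in EDL and 1.01 and 0.87 in Sol at its promoter. Neither reached the bound.

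Calcium handling genes gave 4 of 46 regions higher in EDL (8.70%, against 1.93% of all regions) and 1 higher in Sol (2.17%, against 0.799%), with a median of 0.36. With the input subtracted 2 of the 4, Camk2g (1.1) and Cacna1s (1.06), and the one higher in Sol (-1.01) kept their call. Camk2g, a calcium/calmodulin-dependent kinase, was at 1.27 and 1.67 in EDL and -0.10 and 0.22 in Sol (chr14:20784472-20794777). Cacna1s, the voltage sensor of excitation-contraction coupling, was at 0.98 and 1.51 against -0.01 and 0.12 at its start. Pln, phospholamban, is the inhibitor of the calcium pump in slow fibers and heart, and a region 25028 bases from its start was higher in EDL, at 0.06 and -0.08 against -1.15 and -1.40. The fourth lay 111 kb from Jph1, which joins the T-tubule to the sarcoplasmic reticulum, at a difference of 1.05. The one region higher in Sol belonged to Atp2a2, the calcium pump of slow fibers and heart. It lay 25.2 kb upstream (chr5:122524567-122530267) and measured -0.67 and -0.80 in EDL and 0.70 and 0.64 in Sol, -1.40 ± 0.08.

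Genes of glycolysis and glycogen had 34 of 39 regions above 0, a median of 0.55, and 4 regions (10.3%, against 1.93% of all regions) called higher in EDL. Hk2 (1.19) and Phka1 (1.02) kept their call with the input subtracted, and Gpd1 (0.87) and Ldha (0.34) did not. A region 32.7 kb upstream of Hk2, the hexokinase that takes glucose into glycolysis, was at 0.99 and 0.99 in EDL and -0.26 and -0.81 in Sol (chr6:82805366-82808920). Phka1, a regulatory subunit of muscle phosphorylase kinase, was at 0.44 and 0.48 against -1.02 and -0.95, 1.44 ± 0.04. Gpd1, the cytosolic glycerol-3-phosphate dehydrogenase, was at 0.88 and 0.96 against -0.42 and -0.49, and a region 6.21 kb from Ldha, the muscle lactate dehydrogenase subunit, at 1.22 and 1.40 against 0.10 and 0.31. Lactate and ketone genes had a median of -0.04 over 13 regions. Of these, 1 was called each way (7.69%, against 1.93% of all regions higher in EDL and 0.799% higher in Sol). Slc16a3 was higher in EDL, as given above. Bdh1, a mitochondrial enzyme of ketone use, was higher in Sol at 0.03 and -0.72 in EDL and 0.92 and 0.47 in Sol. Slc16a3 kept its call with the input subtracted (1.71) and Bdh1 did not (-0.67).

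Of the 32 regions of respiratory chain and citrate cycle genes 0 were called, where 2.73% of all regions were. In so few regions a count of 0 is near that share and is no result about these genes. Their median was 0.16 and the range ran from -0.80 to 0.73. The strongest, at the promoter of the ATP synthase subunit gene Atp5b, was at 2.14 and 2.03 in EDL and 1.91 and 1.76 in Sol. Fatty acid genes had a median of -0.01 over 50 regions. Of these, 2 were called higher in EDL (4.0%, against 1.93% of all regions) and none higher in Sol. These were the promoter of Ucp3, an uncoupling protein homologue of fast muscle, at 1.73 and 1.51 against 0.37 and 0.20, and an intron of the acyl-CoA synthetase gene Acsl6 at 0.51 and 0.57 against -0.54 and -0.51. Neither was called with the input subtracted, at 0.74 and 0.90.

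Regulators of metabolic transcription had 6 of 68 regions higher in EDL (8.82%, against 1.93% of all regions). The list had 1 higher in Sol (1.47%, against 0.799%) and a median of 0.25. None of the 7 kept its call with the input subtracted, including Nrip1 and Esrrb, given above. Ppargc1b, a coactivator related to PGC-1α, was at 0.04 and 0.23 in EDL and -1.31 and -1.0 in Sol 16.4 kb from its start, and Prkaa2, the muscle AMPK catalytic subunit, at -0.36 and 0.16 against -1.24 and -1.28. These were the ones that turned negative, to -0.21 and -0.10. Ppargc1a itself had an intronic region at a difference of 1.07 ± 0.21, Ppard one at 1.03 and Nrip1 a second one at 1.03 ± 0.52.

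**Figure D3:**
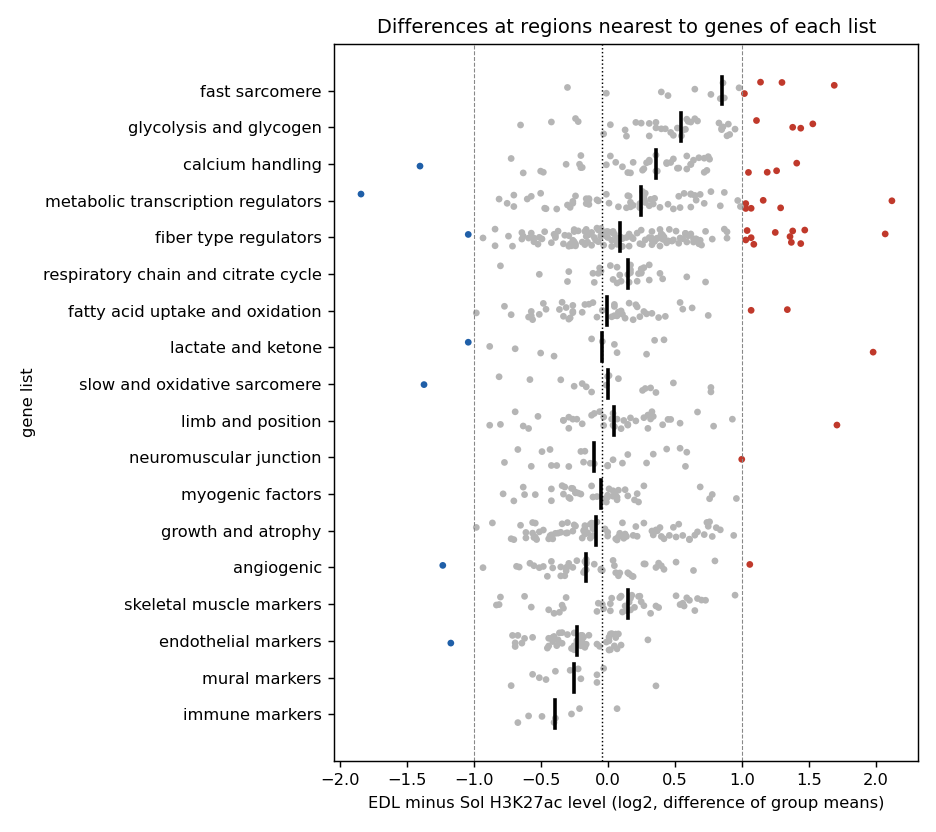
EDL minus Sol H3K27ac difference (x axis, log2) of each matched region whose nearest gene is on a list (y axis), red where over 2-fold higher in EDL and blue where over 2-fold higher in Sol. Black bars are list medians and the dotted line the median of all regions (-0.04): the bars of fast sarcomere (0.85) and of glycolysis and glycogen (0.55) lie farthest right, and that of immune markers (-0.39) farthest left.

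Fiber type regulators held 11 of the 399 regions higher in EDL, 8.09% of the list's 136 regions against 1.93% of all. The list held 1 higher in Sol (0.735%, against 0.799%) and had a median of 0.09. With the input subtracted 2 of the 11 kept their call and the one higher in Sol did not. Sox6 had 5 matched regions, of which 3 were called. Beside the upstream region given above, one 1.45 kb from an annotated start (chr7:116029036-116035962) was strong in both muscles. It measured 1.88 and 2.05 in EDL and 0.76 and 0.66 in Sol. Another, 255 kb from a start, was at 0.77 and 0.86 against -0.13 and -0.31. The distances of these 3 refer to different annotated starts of Sox6. Vgll4, a cofactor of TEAD factors, had 10 matched regions. Of these, 3 neighbouring ones within 30.9 kb (chr6:114804346-114835243) differed by 1.37, 1.36 and 1.47. They were annotated to introns, 88.4 to 116 kb from its start, and were assigned to Vgll4 by nearest start only. The other 7 ran from -0.39 to 0.42 and were not called. Eya1 and Eya4, transcriptional cofactors of fast fibers, were called at 1.44 ± 0.33 and 1.38 ± 0.66. A second Eya1 region was called at 1.07, and the remaining 2 were near Mafa (1.09), a large Maf transcription factor, and Bhlhe41 (1.03), a circadian repressor. The region of this list higher in Sol lay 69.5 kb from Vgll2, a TEAD cofactor of muscle, at -1.04.

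Several called regions also gathered at Abcc4, an exporter of organic anions, with 3 of 6 regions higher in EDL (1.33, 1.15 and 1.29). None of these 3 was called with the input subtracted, and the region at 1.15 turned to -0.03. Smim20, a factor of cytochrome oxidase assembly, had 3 of 9 higher in EDL (1.30, 1.15 and 1.15), all within 80 kb of its start, and its 4 most distant regions were below 0. Both matched regions of Cdkn2aipnl were called, at 2.01 ± 0.19 and 1.62 ± 0.03. In the other direction, Dhrs4 had 2 of 3 regions higher in Sol (-1.59 and -1.29), Ldlrad3 2 of 3 (-1.15 and -1.37), Mir8118 2 of 2 (-1.03 and -1.38) and Ift81, a gene of transport in cilia, 2 of 2 (-1.25 and -1.24). Edem3, which acts in the disposal of misfolded glycoproteins, had regions of both kinds: 2 upstream higher in Sol (-1.15 and -1.06) and 1 on the other side of its start higher in EDL (1.04). With the input subtracted 2 of the 16 named EDL-higher regions and 3 of the 11 named Sol-higher regions of the genes with most calls were still called.

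**Figure D4:**
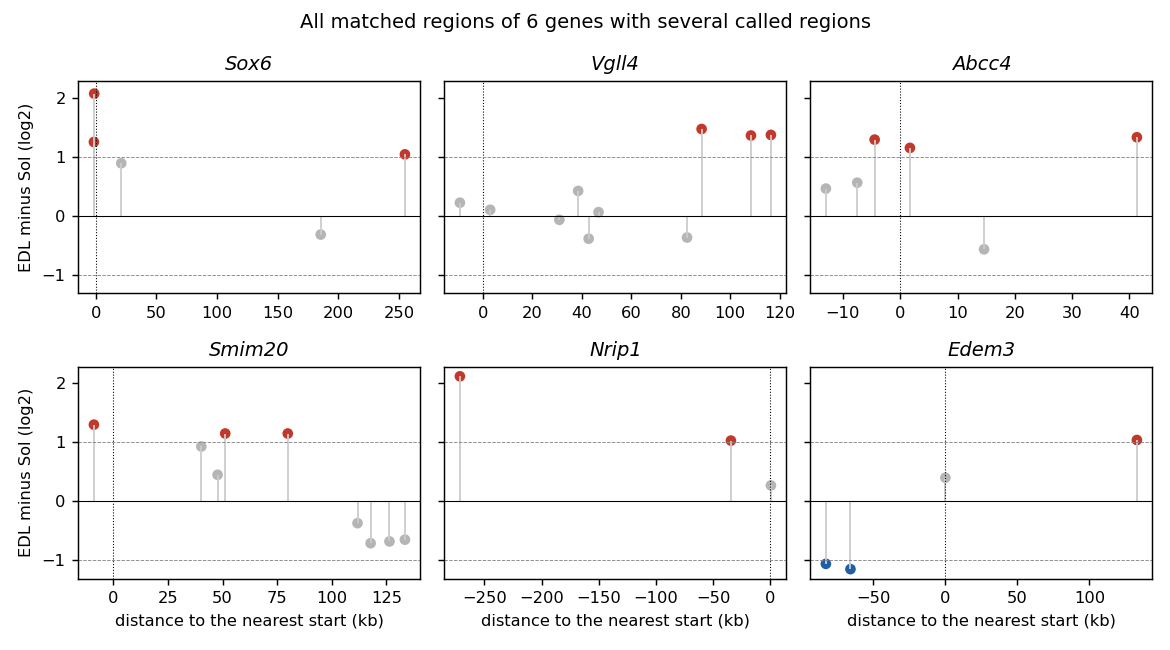
EDL minus Sol difference (y axis, log2) of each matched region of 6 genes against distance to the nearest annotated start (x axis, kb). Points are red where called higher in EDL, blue where called higher in Sol and grey where not called. Distances within a gene can refer to different starts, as those of Sox6 do. The 3 called Vgll4 regions lie next to each other at 88.4 to 116 kb. Those of Sox6 lie near a start and at 255 kb, and Edem3 has called regions of opposite direction on either side of a start.

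The shares called in the other lists were near those of all regions (1.93% and 0.799%) or rested on 1 region. For limb and position genes it was 1 of 43, a region 7.10 kb from Hoxa11, a gene of limb patterning, at 0.60 and 0.78 in EDL and -0.73 and -1.30 in Sol, and the list median was 0.05. Neuromuscular junction genes had 1 of 25, at Ache (acetylcholinesterase) with -0.27 and -0.12 against -1.23 and -1.17, and a list median of -0.1. The angiogenic list, with a median of -0.16 over 50 regions, had a region near Hif1a higher in Sol (-1.23 ± 0.44) and one near Nos1 higher in EDL (1.06 ± 0.47). Hif1a was at -0.05 and Nos1 at 0.98 with the input subtracted, and neither was called. Ache (0.71) also lost its call then, and Hoxa11 (1.57) kept it. None of the 42 regions of myogenic factors and none of the 82 of growth and atrophy genes was called, and their medians were -0.05 and -0.09. The strongest of these lists were Id3 (0.07) and the promoter of Bmpr1a (0.61). Among 24 regions of genes chosen as invariant controls, 1 near Actb reached the bound at 1.0 ± 0.09 (0.76 with the input subtracted), and their median was -0.13.

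Markers of most other cells in muscle leaned to Sol. Over all 20649 regions the median was -0.04 and 11200 lay below 0. The median difference was -0.23 for endothelial markers (40 of 53 regions below 0), -0.25 for mural (11 of 12) and -0.39 for immune (7 of 8). It was -0.31 for adipocyte (7 of 8), -0.23 for Schwann cell (10 of 11) and -0.24 for satellite cell markers (9 of 12). Skeletal muscle markers had 0.15, and fibroblast and tendon markers (-0.07, 21 of 35) lay near all regions. With the input subtracted the endothelial, mural and immune medians were -0.22, -0.20 and -0.22. Schwann and satellite cell medians were then -0.33 and -0.44, that of adipocytes -0.06 and that of fibroblast and tendon markers -0.01. The called marker regions were both higher in Sol: one 120 kb from Sox17, an endothelial factor, at -1.17 ± 0.17, and one in Mbp, the myelin basic protein, at -1.13 ± 0.34. Subtracting the input left them at -0.66 and -0.21, not called. What part other cells had in the regions higher in Sol was not tested. The strongest regions of marker lists without a call differed by 0.67 (Prrx1), 0.36 (Acta2), -0.39 (Laptm5), -0.22 (Fabp4), 0.24 (Sdc4) and 0.25 (Ttn).

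H3K4me2, dimethylation of histone H3 lysine 4, marks promoters and enhancers whether or not they are acetylated, and was measured in separate libraries of the same muscles. A matched H3K4me2 peak overlapped 171 of the 399 regions higher in EDL (42.9%) and 53 of the 165 higher in Sol (32.1%), against 65.4% of all regions. The values below therefore cover a minority of the called regions. The H3K4me2 lists carry the same inputs as the H3K27ac lists, and input was not subtracted from them. The H3K4me2 difference had the same sign as the H3K27ac difference in 159 of the 171 (93.0%, median 0.41, quartiles 0.23 and 0.61) and in 50 of the 53 (94.3%, median -0.61, quartiles -0.85 and -0.23). Over the 13495 matched regions with a value the median was 0.01 and 50.9% lay above 0. By the same 2-fold rule, 0.246% of the 26032 matched H3K4me2 regions were higher in EDL and 0.373% higher in Sol. Of the 171 regions 9 (5.26%) passed it in EDL and of the 53 regions 10 (18.9%) in Sol, and none passed it the other way.

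The region of Slc8a1 had the largest H3K4me2 difference of the 171, with -0.04 and -0.23 in EDL and -1.75 and -1.53 in Sol, 1.5 higher in EDL. Gramd4 followed among the regions named above at 1.16. At the Sol-higher region of Gpr137 it was -2.07 and -1.85 in EDL and -0.53 and -0.92 in Sol, and at Calb1, a calcium buffer named here after its value was seen, it was lowest of the 53 at -1.46. In contrast, H3K4me2 differed by 0.06 at the region upstream of Sox6 and 0.02 at Xylt1, where H3K27ac differed by 2.07 and 2.00. Slc16a3, at 0.28, also had far less difference in H3K4me2 than in H3K27ac.

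A second pair of muscles gave H3K27ac lists from libraries that the calls had not used. The header of Dia replicate 2 gives 19189217 tags. The paper lists that count for replicate 2 of Dia H3K4me2 and a lower one for this library. Which mark the column holds could not be settled. The quadriceps (Quad) is mostly fast and the diaphragm (Dia) is a mixed muscle in constant use. Peaks of both lists matched the EDL peak at 233 of the regions higher in EDL and 47 of those higher in Sol. The Quad minus Dia difference was above 0 at 211 of the 233 (90.6%, median 0.60) and below 0 at 37 of the 47 (78.7%, median -0.56), and over 13228 regions its median was -0.04. Without replicate 2 of both muscles the medians at the 233 and the 47 were 0.74 and -0.68. The 2-fold rule called 2.38% of 15539 regions higher in Quad and 1.6% higher in Dia. It called 49 of the 233 higher in Quad and none higher in Dia, and 10 of the 47 (21.3%) higher in Dia and 1 higher in Quad. The exception was the region at Mir331, at -1.80 in EDL minus Sol and 1.34 in Quad minus Dia.

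Among the named regions with values in the second pair, the largest Quad minus Dia differences were at Gramd4 (1.68), Actn3 (1.62), a Smim20 region (1.41), Slc16a3 (1.37) and Mpst (1.34). Slc8a1 at 0.14 and Hk2 at 0.39 differed less there. The lowest were at an Edem3 region (-1.68) and the region 9.01 kb from Dhrs4 (-1.55), both higher in Sol. The 2 Myl1 regions were 0.76 and 0.74 higher in Quad.

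**Figure D5:**
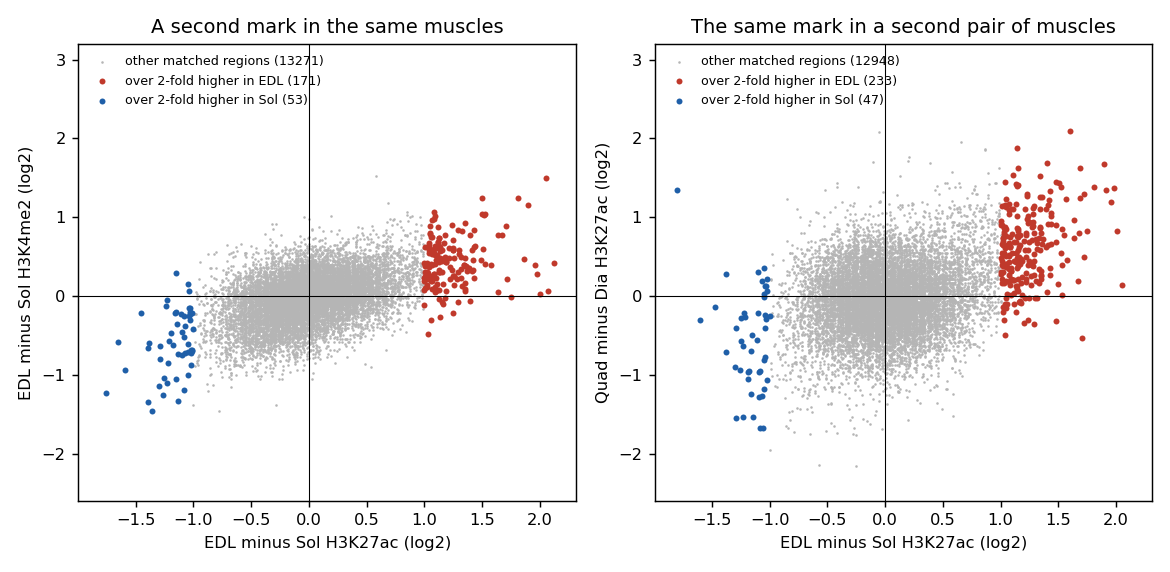
EDL minus Sol H3K27ac difference (x axis, log2) against the EDL minus Sol H3K4me2 difference (left, y axis, log2) and the Quad minus Dia H3K27ac difference (right, y axis, log2), 1 point per matched region with a value. The red points (171 left, 233 right) lie mostly above 0 and the blue ones (53 left, 47 right) mostly below 0 on the y axes.

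Peaks of other assays, called in other lists, were counted where their centre lay inside the interval shared by both muscles' peaks. Accessible sites of Quad, from ATAC-seq, lay in 344 of the 399 regions higher in EDL (86.2%), in 71 of the 165 higher in Sol (43.0%) and in 78.1% of all regions. The shared intervals had a median length of 2225 bp, 1571 bp and 1864 bp in the same order. Their median H3K27ac level over both muscles was 0.01, -0.64 and -0.01, so the regions higher in Sol were weaker. No list of accessible sites in Sol was used, and Quad is mostly fast like EDL. These shares are therefore not a measure of accessibility in Sol. The 834 EDL MED1 peaks fell in 6 of the 399 regions higher in EDL, in 0 of those higher in Sol and in 309 of all 20649. The 4070 Sol MED1 peaks fell in 8 regions higher in EDL (2.01%), in 6 higher in Sol (3.64%) and in 7.42% of all. The 39661 Sol NFAT peaks, which follow the calcium-regulated factor of slow fibers, fell in 11 (2.76%), 7 (4.24%) and 594 regions (2.88%) in the same order. The MED1 and NFAT lists rest on 1 library each.

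In the 1000 bases round the centre of the shared interval, the MEF2 word, bound by the factors that drive muscle genes downstream of calcium signalling, was found in 36 of 399 regions higher in EDL (9.02%), 17 of 165 higher in Sol (10.3%) and 3.75% of all regions. The half-site AGGTCA was found in 59.9%, 56.4% and 48.8%, and AP-1's TGANTCA in 28.3%, 36.4% and 25.6%. For CAGCTG the shares were 53.1%, 45.5% and 47.5%, for TGGAAA 63.4%, 68.5% and 59.3%, and for the full ERR word TCAAGGTCA, which contains the half-site, 3.01%, 5.45% and 2.68%. The median GC content was 47.5%, 47.2% and 50.8%, and its part in these shares was not tested. Of 73 named regions 1 held the MEF2 word, in an intronic region 0.108 kb from the start of Ift81 that was higher in Sol (-1.24). It is printed with 10 bases on each side, with the word in capitals, at chr5:122614114-122614143 on the plus strand.
Ift81: gcgctgcgcgCTAAAATTAGcaaaagcaat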

How the data were processed

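H3K27ac ChIP-seq of EDL and soleus, with 2 libraries each, was taken from 2 peak lists, and H3K4me2 of the same muscles, H3K27ac of Quad and Dia, MED1, NFAT and ATAC-seq lists served for comparison. By the submitters' processing notes and the methods, the authors aligned reads with Bowtie (the notes give 1.2) to mm10, called broad peaks per muscle over both libraries against input with HOMER, and deposited 1 tag column per library. Per the file headers, the authors ran DESeq2 within each list, and the columns are called tag counts. Their log2 scale was inferred here from the deposited values, which are not whole and rose by 1.03 to 1.06 per doubling of the pooled peak score. They were taken as values that the authors had regularized within each list. The deposited p-values are adjusted p-values of each peak over input, used here only for a stricter list, and the deposited peak scores are HOMER's, used for MED1 ranks and 1 alternative. The deposited ATAC signal was used for positions only. The authors' fold changes over input were not used.

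Lists were matched at 50% reciprocal overlap, levels were computed per kb and centred, and regions past 1 (log2) without overlap of libraries were called (Python 3.11.15, numpy 2.4.6, pandas 2.3.3, scipy 1.17.1, matplotlib 3.10.9). Matching and calling were tested on simulated data. Because the lists were normalized separately, no test was run. Regions take the nearest gene of the EDL peak, and genes and lists were chosen with earlier results of these data known. Named regions are the 12 with the largest difference in each direction, up to 4 called regions per gene list or else its strongest (further called regions of a list were named to complete its count), the regions of 6 genes with the most calls in each direction, and Myh1, Myh2, Myh4, Myh7, Pvalb, Ngdn and Acta1. Alternatives were another overlap, peak threshold, width term, centring, fold and library set. One of the sequence words searched is not reported here.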

Additional observations from a re-analysis of the deposited data

How the results depend on the processing

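Called counts moved with many settings and stayed within 1.5-fold of the main count in others. They are given here for all, EDL-higher and Sol-higher regions. They were 171, 113 and 58 at 80% overlap (9560 matched regions, rho 0.911), 2091, 1142 and 949 without the width term (rho 0.914), 285, 191 and 94 with adjusted p under 0.001 in both lists (15335 matched regions, rho 0.849), 370, 251 and 119 without the regions of lowest level (rho 0.8), and 356, 270 and 86 with the replicate block, where both number-matched differences had to pass. At 1.5-fold they were 3303, 1755 and 1548, and at 3-fold 43, 33 and 10. Centring on promoters gave 249 Sol-higher regions, and quantile normalization gave 562, 452 and 110. Chosen after seeing the data, input subtraction gave 322, 198 and 124, of which 87 and 22 were shared with the calls, and the pooled peak score gave 434 and 109. Also chosen then, a limit to peak widths within 1.5-fold of each other (16688 regions) gave 385, 270 and 115. Leaving out a library gave 622 to 786 in all, 377 to 540 EDL-higher and 216 to 278 Sol-higher, the last without EDL replicate 1, and rho of 0.855 to 0.882. Replicate 1 minus 2 in EDL and in Sol correlated across regions at 0.49, and with 2 numbers shared the pairing could not be told from the data.

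The median H3K4me2 difference at EDL-higher regions was 0.33 at 80% overlap (24 regions) and 0.36 to 0.47 without a replicate number. At Sol-higher regions it was -0.49 at 80% overlap (8 regions), -0.5 without the width term and -0.58 to -0.56 without a replicate number. The Quad minus Dia median was 0.46 to 0.74 and -0.68 to -0.37 without a replicate number. Top-scoring Sol MED1 peaks, 834 as in EDL, fell in 1.21% of Sol-higher regions, and the MEF2 word had 0.135 per kb of EDL-higher regions in 500 bases against 0.0902 in 1000.

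At 88 named regions, input subtraction left 20 differences within the spread of the library pairings, moved 65 and reversed 3, namely Ppargc1b to -0.21, Prkaa2 to -0.10 and Abcc4 to -0.03. Dropping the width term moved 65 of the 88. Over the 9 settings that kept all libraries, 466 of 638 values stayed within the spread and 169 moved. Values without a library lie within that spread by construction and are not counted. The cause was not tested.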

Other observations

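Most called regions stood alone. Of the 399 regions higher in EDL, 78 (19.5%) had another such region within 100 kb, and of the 165 higher in Sol 15 (9.09%) did. Groups of 3 were found at Vgll4, Abcc4, Smim20 and at Gpt2, an alanine aminotransferase of mitochondria, together with 4921524J17Rik (chr8:85456568-85499593, 1.16 to 1.48), all higher in EDL. The one group of 3 higher in Sol spanned 98.2 kb and joined the region upstream of Atp2a2 to both regions of Ift81 (chr5:122524567-122622743, -1.40 to -1.24), with 5 matched regions inside and none called the other way. The Ift81 regions, 0.108 kb and 6.49 kb from its start, are assigned by nearest gene only, and which gene they act on was not measured.

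Some regions with a strong EDL peak and no Sol peak lay near genes of the lists and are outside the counts of called regions. The highest by level was a peak near Mstn, the growth inhibitor myostatin, 24.1 kb away at 0.80 and 0.78 in the EDL libraries (chr1:53036156-53038996), followed by peaks near the muscle transcription factor gene Mef2a at 0.63 and 0.69, near Pvalb at 0.47 and 0.50, near Ppp1r3a, a glycogen-targeting subunit of protein phosphatase, at 0.20 and 0.75, and near Mef2c at 0.46 and 0.35. Of the 9521 EDL peaks without a Sol partner 565 (5.93%) had a level above the matched median, against 121 of 7127 Sol peaks (1.70%).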
